A study of Homo sapiens with 6 samples.

Results

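Transcripts of 10 genes that bring cystine into the cell and make, use and break down glutathione were followed in RKO, a human colorectal carcinoma cell line, that had received either EZA or its solvent control DMSO. The genes were SLC7A11, SLC3A2, CHAC1, CHAC2, GCLC, GCLM, GSS, GSR, GPX4 and GGCT, 10 of the 58735 gene rows of the series. They were chosen by pathway, with the values of the EZA against DMSO comparison already known, so their values in that comparison are a description, no p-value is given for them, and counts of those past a threshold support nothing. Both groups were RKO cells with no genetic change named in the labels, and each held 3 replicates that the study calls biological. Whether they came from separate cultures is not stated, so errors measure the spread between these libraries. What EZA stands for is not spelled out in the labels, and for its dose and duration the sources used here give no value.

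Glutathione is a tripeptide of glutamate, cysteine and glycine and the most abundant small thiol of most cells. Cysteine limits its synthesis, and many cultured cells obtain it by exchanging internal glutamate for external cystine. Glutathione is joined by an ATP-driven ligase with a catalytic and a modifier subunit, followed by a synthetase, and enzymes inside the cell can cleave it again to 5-oxoproline. A pair of transcription factors are known to act on many of these genes, ATF4 when amino acids are short or the ER is stressed, and NRF2 (the product of NFE2L2) when electrophiles or oxidants modify its inhibitor KEAP1.

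Promoter sequences carrying the short DNA words tied to those factors are shown first. RefSeq promoter windows on GRCh38.p14, from 250 bases before to 50 bases after a transcription start, were matched for 6 of the 10 genes (CHAC1, CHAC2, SLC3A2, GCLC, GCLM and GPX4), and SLC7A11, GSS, GSR and GGCT had no entry. The words searched on both strands were TGATGNAA, the C/EBP-ATF response element at which ATF4 binds, and TGACNNNGC, the core of the antioxidant response element at which NRF2 binds. TGATGNAA occurred in 3.62% of 35116 windows and TGACNNNGC in 13.35%. Counted by gene, over all windows of each, they occurred in 4.46% and 16.06% of 27305 genes. The stretches below run 5′ to 3′ on the gene's own strand, and capitals mark the matched word.
CHAC1 (chr15:40953251-40953280, plus strand): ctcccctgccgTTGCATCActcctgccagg
SLC3A2, after the start (chr11:62881719-62881748, plus strand): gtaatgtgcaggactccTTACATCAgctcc
SLC3A2, before the start (chr11:62881579-62881698, plus strand): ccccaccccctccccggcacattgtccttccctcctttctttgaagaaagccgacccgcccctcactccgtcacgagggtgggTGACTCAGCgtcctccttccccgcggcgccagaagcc
GCLM (chr1:93909456-93909555, minus strand): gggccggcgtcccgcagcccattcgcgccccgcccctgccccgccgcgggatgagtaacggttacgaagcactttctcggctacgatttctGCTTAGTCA

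In CHAC1 the word TGATGCAA lay on the opposite strand and began 209 bases before the start at 40953471. This stretch also falls in an exon of another CHAC1 transcript in the GENCODE annotation. SLC3A2 has 3 annotated starts, and both words occurred around the one at 62881699. There TGACTCAGC began 37 bases upstream, and TGATGTAA lay on the opposite strand beginning at base 38 of the transcript. The windows of the other 2 SLC3A2 starts held neither word. In GCLM the word TGACTAAGC lay on the opposite strand and began 34 bases before the start at 93909430. The windows of CHAC2, GCLC and GPX4 held neither word. A match is a description of letters and not of a bound site, and no binding was measured.

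Levels are given in CPM, counts scaled to a common library size after TMM correction, or, between genes, in FPKM, the deposited values scaled to gene length. Libraries held 14070611 to 18840954 counts, and 13503 genes had enough counts to be tested, among them all 10. In such bulk libraries a change in the share of cells of one kind and a change in RNA per cell cannot be told apart. EZA replicate 3 stood apart. Mitochondrially encoded genes took 0.203% of its counts and 3.68% to 5.02% in the other 5 libraries, and its log-CPM correlated with those of the other EZA libraries at 0.962 and 0.964, against 0.991 between those 2. Of 8 epithelial and colon markers, KRT18, KRT8, EPCAM and CDX2 were expressed in both groups, while CDH1 (E-cadherin) had no count in any library and KRT19, KRT20 and VIL1 almost none. Of 10 markers of blood, endothelial, stromal and liver cells, 5 had no count in any library, and all 10 together gave 14 to 40 counts per library.

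The cystine importer showed large differences in both of its parts. SLC7A11 (chromosome 4, 138164097 to 138242349), which carries cystine in and glutamate out, was at 20.8, 23.75 and 25.5 CPM in DMSO replicates 1 to 3 and at 314.5, 307.9 and 409 CPM in EZA replicates 1 to 3. The lowest EZA library lay far above the highest DMSO library. The log2 fold change, EZA over DMSO, was 3.88 ± 0.17 (SE), a 14.7-fold higher level, and 11 of the 13503 genes had a larger positive one.

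SLC3A2 (chromosome 11, 62856004 to 62888880) encodes 4F2hc, the heavy chain that carries SLC7A11 and several other amino acid transporters to the cell surface. It was at 218, 257 and 223 CPM in DMSO and at 897, 996 and 1589 CPM in EZA replicates 1 to 3. All EZA libraries were above all DMSO libraries, and EZA replicate 3 was well above the other EZA libraries. The log2 fold change was 2.32 ± 0.23 (SE), or 4.99-fold, and without EZA replicate 3 it was 2.03.

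The difference was unequal for the 2 partners. In FPKM, SLC3A2 exceeded SLC7A11 by a factor of 19.5, 20.2 and 16.3 in DMSO replicates 1 to 3, and by 5.31, 6.025 and 7.23 in EZA replicates 1 to 3. This ratio, taken within each library, does not depend on how libraries are scaled, and its values did not overlap between the groups. It averaged 18.65 ± 2.06 in DMSO and 6.19 ± 0.97 in EZA (SD, n = 3 each).

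**Figure D1:**
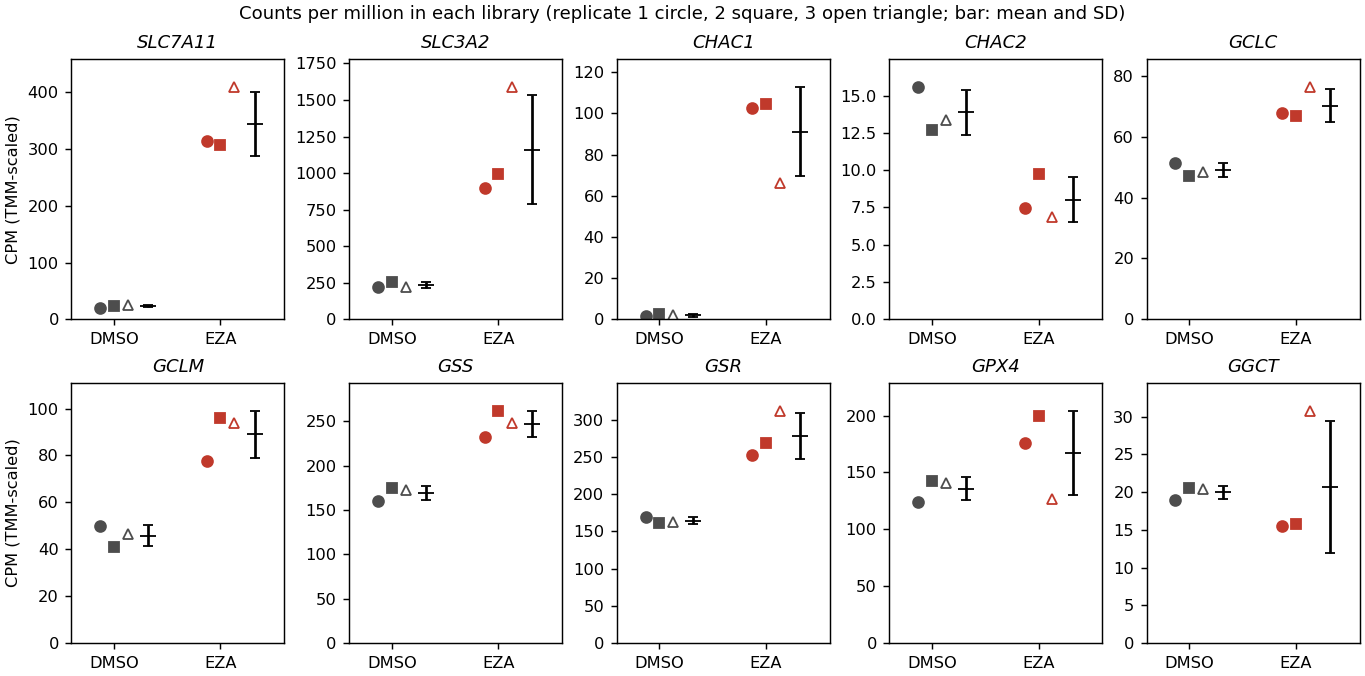
CPM (linear axes from 0) of the 10 genes in each library, with DMSO in grey and EZA in red, a symbol for each replicate, and bars for the mean and SD (n = 3 each). The groups are apart for 8 genes, while GPX4 and GGCT overlap through EZA replicate 3, which lies at 126 and 30.8 CPM.

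CHAC1 and CHAC2, the enzymes of the list that cleave glutathione inside the cell, went in different directions. CHAC1 (chromosome 15, 40952962 to 40956512), a γ-glutamyl cyclotransferase induced by stress, was rare in DMSO, with 23, 42 and 30 counts or 1.44, 2.68 and 1.92 CPM. In EZA replicates 1 to 3 it reached 1615, 1896 and 936 counts, or 102.5, 104.7 and 66.2 CPM. The groups were far apart, and EZA replicate 3 was the lowest of its group. The log2 fold change was 5.50 ± 0.28 (SE), or 45.2-fold, at rank 4 from the highest among all genes tested. With so few DMSO counts, counting error alone gives a coefficient of variation of 17.8% there, against 31.1% observed.

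CHAC2 (chromosome 2, 53767804 to 53775196), its constitutive relative with lower activity, was at 15.6, 12.7 and 13.4 CPM in DMSO and at 7.49, 9.72 and 6.86 CPM in EZA. All EZA libraries were below all DMSO libraries. The log2 fold change was -0.79 ± 0.185 (SE). Counts were modest, 97 to 249 per library, and genes of like GC content (within 2.5 percentage points) had a median of -0.33. After removal of the trend that counts followed with GC content and length, CHAC2 was at -0.49.

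By FPKM, CHAC1 stood at 0.0593, 0.1355 and 0.0921 of the CHAC2 level in DMSO replicates 1 to 3 and at 8.79, 6.92 and 6.19 times that level in EZA replicates 1 to 3. CHAC2 was thus the more abundant of the pair in each DMSO library and CHAC1 in each EZA library.

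GGCT (chromosome 7, 30496621 to 30504841), a cyclotransferase that releases 5-oxoproline from γ-glutamyl amino acids, was at 19.02, 20.5 and 20.4 CPM in DMSO and at 15.55, 15.79 and 30.8 CPM in EZA replicates 1 to 3. EZA replicates 1 and 2 lay below all DMSO libraries and EZA replicate 3 above them. Its log2 fold change of 0.05 ± 0.26 (SE) averaged over these opposite differences, and it was -0.35 without EZA replicate 3. The coefficient of variation was 42.2% in EZA and 4.12% in DMSO, where counting error alone gives 5.57% and 5.64%.

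The synthesis enzymes were higher by smaller amounts. GCLC (chromosome 6, 53497341 to 53616970), the catalytic subunit of glutamate-cysteine ligase, was at 51.5, 47.2 and 48.45 CPM in DMSO and at 67.7, 66.8 and 76.35 CPM in EZA. GCLM (chromosome 1, 93885199 to 93909456), the modifier subunit that raises the affinity for glutamate and eases feedback inhibition, was at 49.99, 41.0 and 46.3 CPM in DMSO and at 77.6, 95.9 and 93.9 CPM in EZA. Neither gene overlapped between the groups. The log2 fold changes were 0.52 ± 0.12 for GCLC and 0.96 ± 0.14 for GCLM (SE), or 1.43-fold and 1.95-fold.

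GCLM exceeded GCLC in FPKM in all 6 libraries, by a factor of 1.55, 1.39 and 1.52 in DMSO replicates 1 to 3 and of 1.83, 2.29 and 1.96 in EZA replicates 1 to 3. The ratio did not overlap between the groups. Its size in any library depends on the fixed length by which FPKM scales each gene. In CPM, not scaled to length, GCLC was above GCLM in each DMSO library and below it in each EZA library. The longest annotated transcript is 3785 bases for GCLC and 4883 for GCLM. Which of the pair is more abundant per transcript in DMSO therefore depends on the length used. GCLM has a GC content of 37.3%, and genes of like GC content had a median log2 fold change of -0.30, so GCLM lay on the other side of 0 from them. With the GC content and length trend removed, GCLC was at 0.65 and GCLM at 1.29 on the log2 scale.

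GSS (chromosome 20, 34928432 to 34956027), glutathione synthetase, which adds glycine, was at 160, 174 and 173 CPM in DMSO and at 232, 262 and 248 CPM in EZA. The groups were apart, with a log2 fold change of 0.55 ± 0.12 (SE). It varied little among replicates, with a coefficient of variation of 4.75% in DMSO and 6.03% in EZA.

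Of the genes that recycle and use glutathione, GSR differed in all libraries and GPX4 did not. GSR (chromosome 8, 30678066 to 30727846), the reductase that regenerates glutathione from its oxidised form with NADPH, was at 169, 161 and 163 CPM in DMSO and at 253, 269 and 312 CPM in EZA. The groups did not overlap, and the log2 fold change was 0.76 ± 0.13 (SE), or 1.69-fold.

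GPX4 (chromosome 19, 1103982 to 1106791), the selenoenzyme that reduces lipid hydroperoxides with glutathione and guards against ferroptosis, was at 123.8, 142.8 and 140.5 CPM in DMSO and at 175.7, 199.5 and 126.3 CPM in EZA replicates 1 to 3. EZA replicates 1 and 2 lay above all DMSO libraries, and EZA replicate 3 lay among them. The log2 fold change was 0.30 ± 0.17 (SE). Without EZA replicate 3 it was 0.47, and with the GC content and length trend removed it was -0.11. GPX4 has the highest GC content of the 10 genes, 62.5%, and genes of like GC content had a median log2 fold change of 0.42. The part of GC content and of EZA replicate 3 in the GPX4 values was not tested further.

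**Figure D2:**
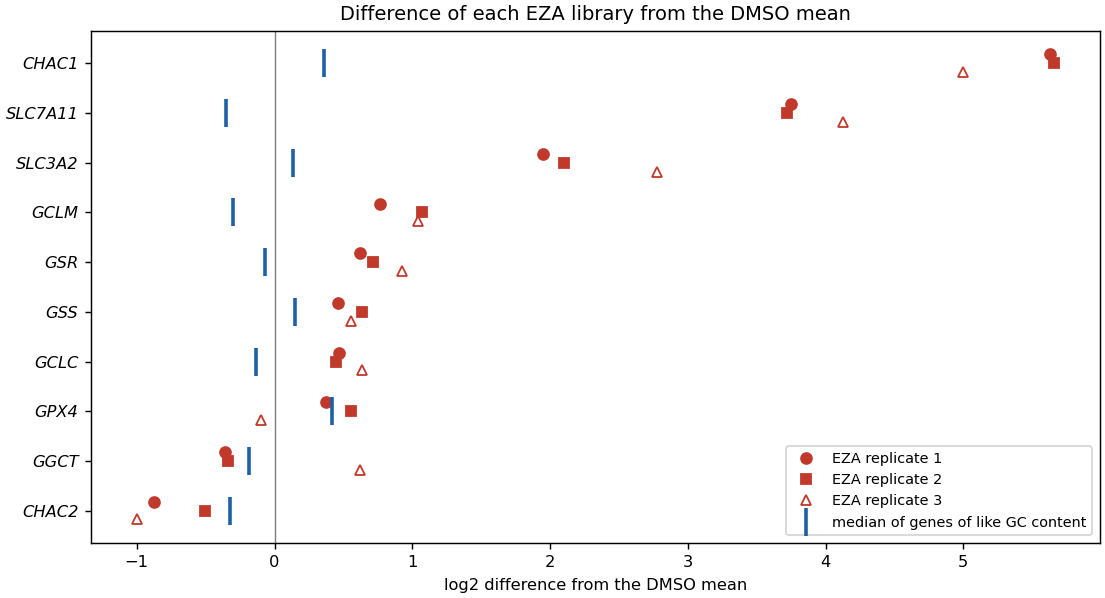
Distance of every EZA library from the mean of DMSO (difference of log-CPM with a prior count of 2, log2 scale), with symbols for EZA replicates 1 to 3 and a blue tick for the median log2 fold change of protein-coding genes within 2.5 percentage points of GC content. The 3 EZA libraries fall on one side of 0 for 8 genes; GPX4 (0.375, 0.56 and -0.10) and GGCT (-0.36, -0.335 and 0.62) are split by EZA replicate 3.

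Across the 10 genes, 7 were called higher and 1 lower at an adjusted p below 0.05 (edgeR's quasi-likelihood test), where 17.7% of all genes tested were called, 9.89% higher and 7.82% lower. Over all genes the main scaling gave 1336 higher and 1056 lower calls, scaling by library size alone 1059 and 1270, and leaving out mitochondrial genes 1544 and 891. The criterion named in the study's design, 2-fold with an unadjusted p under 0.05, held for SLC7A11, SLC3A2 and CHAC1, and for 5.73% of all genes. EZA and DMSO libraries were fully apart in 8 of the 10 genes and in 42.7% of all genes. The median log2 fold change of the 10 genes was 0.65, and that of all genes tested -0.01. Nothing is read from these counts, because the genes were chosen with this comparison in view.

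Over 14 alternative settings the log2 fold change ran from 3.74 to 4.285 for SLC7A11, from 2.03 to 2.47 for SLC3A2, from 5.12 to 5.77 for CHAC1 and from 0.90 to 1.29 for GCLM. It ran from 0.46 to 0.65 for GCLC, from 0.40 to 0.59 for GSS, from 0.67 to 0.82 for GSR and from -0.95 to -0.49 for CHAC2, while GPX4 (-0.11 to 0.47) and GGCT (-0.35 to 0.23) took both signs. The number of the 10 genes past the threshold is again a description and was 4, 5 and 4 with DMSO replicate 1, 2 or 3 left out, where 1.6%, 5.71% and 1.84% of all genes were called. It was 7, 8 and 10 with EZA replicate 1, 2 or 3 left out, where 11.4%, 10.6% and 38.4% of all genes were called. With the GC content and length trend removed it was 7, where 11.7% of all genes were called.

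The order of transcript levels changed with treatment. In DMSO, GPX4 had the highest level of the 10 genes at 65.9 ± 5.10 FPKM (SD, n = 3), a level above that of 95.3% of protein-coding genes tested. SLC3A2 (44.1 FPKM) and GSR (42.9 FPKM) followed, and their replicate values overlapped. GSS came next at 26.85 FPKM, then GGCT at 12.3, CHAC2 at 10.3, GCLM at 8.28, GCLC at 5.56, SLC7A11 at 2.375 and CHAC1 at 0.96 FPKM. From GSR downward each gene was apart from the next in its 3 values. The spread of replicates does not cover error in the length used for each gene, on which the order in either group rests. GSS and GSR were at 169 and 164 CPM in DMSO, with longest annotated transcripts of 3019 and 3034 bases. Their distance in FPKM thus comes from the lengths used. SLC7A11 lay above 25.9% of protein-coding genes tested and CHAC1 above 13.4%.

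In EZA, SLC3A2 led at 221.5 ± 69.6 FPKM (SD, n = 3), apart from all others. GPX4 (82.05 FPKM) and GSR (73.2 FPKM) overlapped. CHAC1 (43.9 FPKM), GSS (39.7 FPKM) and SLC7A11 (35.25 FPKM) could not be told apart as neighbours, and neither could GCLM (16.3 FPKM) and GGCT (12.8 FPKM). GCLC stood at 8.04 FPKM and CHAC2 was lowest at 6.02 FPKM. CHAC1 thus stood at place 10 in DMSO and 4 in EZA, and CHAC2 at place 6 and 10. Of the summed FPKM of the 10 genes, SLC3A2 made up 20.1% in DMSO and 41.1% in EZA, CHAC1 0.44% and 8.15%, SLC7A11 1.08% and 6.54%, and GPX4 30.04% and 15.2%.

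**Figure D3:**
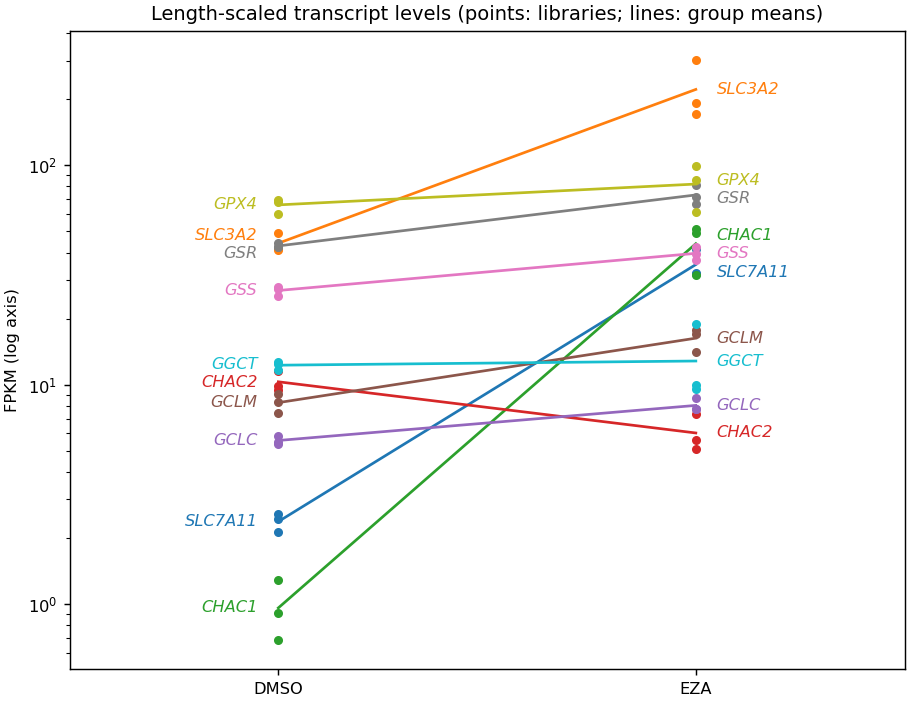
FPKM of the 10 genes on a logarithmic axis, with a point for each library and a line joining the group means (n = 3 each). CHAC1 goes from the lowest mean in DMSO, 0.96 FPKM, to 43.9 FPKM in EZA, and CHAC2 from 10.3 FPKM to the lowest mean in EZA, 6.02 FPKM.

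The libraries do not mark strand, so reads from an overlapping gene on the other strand cannot be told apart. Counts listed for such genes were lower than those of the members, with the smallest gap for ASB3 and CHAC2. How reads in shared stretches were counted is not given. SLC7A11-AS1 had 90 counts against 17421 for SLC7A11 over the 6 libraries, 4 in DMSO and 86 in EZA. ASB3 had 88 against 1048 for CHAC2, MYH7B 50 against 19896 for GSS, and GCLC-AS1 10 against 5675 for GCLC. The other 2 genes overlapping GCLC and the 1 overlapping GGCT had no counts.

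The regulators of the pathway were read beside these genes. They were listed with earlier results of these data known, so their values too are a description. ATF4 rose from 265 ± 9.53 to 1002 ± 140 CPM (SD, n = 3 each), or by 1.92 ± 0.15 on the log2 scale (SE; edgeR adjusted p = 3.39e-04). DDIT3 (CHOP), a factor induced downstream of ATF4, rose from 10.4 ± 1.065 to 36.5 ± 9.42 CPM (adjusted p = 0.00228). Transcripts of NFE2L2 and of BACH1, which represses NRF2 targets, had log2 fold changes of -0.29 ± 0.215 and 0.09 ± 0.13 and did not pass the test (adjusted p = 0.3695 and 0.65). BACH1 was called, at 0.40, with the GC content and length trend removed (adjusted p = 0.0474). KEAP1 rose by 0.43 ± 0.115 (log2 scale; adjusted p = 0.0354), a call that 9 of 14 alternatives ended, leaving out any 1 DMSO library or EZA replicate 1 or 2 among them, and it was at 0.06 with the GC content and length trend removed. Activity of NRF2 is set mainly at the protein level, which was not measured.

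By their values over the 6 libraries, the genes nearest to SLC7A11 were DDIT4, TRIB3 and ASNS, at distances of 0.37, 0.57 and 0.75. The distance is Euclidean, over 6 log2 values after each gene's own DMSO mean was subtracted, among 10391 other genes with at least 5 CPM on average. CHAC1 had no close neighbour. ASNS, SLC7A11 and DDIT4 came nearest, at 2.64, 2.88 and 3.14. Their log2 fold changes were 4.20, 3.88 and 3.80, against 5.50 for CHAC1. With DMSO means subtracted, the distance depends largely on the size of the fold change. The neighbours of SLC7A11 and CHAC1 therefore mostly restate how large those fold changes were. ASNS averaged only 1.06 CPM among DMSO libraries and met the 5 CPM minimum through its EZA mean of 19.55. Nearest to GCLM were SRD5A1, ID3 and ZNF44 (0.21 to 0.25), and nearest to GPX4 were STK16, H2AC25 and NOB1 (0.08 to 0.09). Like GPX4, these last 3 were below their DMSO mean in EZA replicate 3 alone, by -0.09, -0.06 and -0.10 on the log2 scale. Genes picked for lying this near to GPX4 must share that pattern, so it adds nothing to the GPX4 values.

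Other genes of cysteine and glutathione metabolism were tested in the same fit. Of 102 listed genes 74 could be tested. Of these, 20 were called higher and 2 lower in EZA (edgeR adjusted p below 0.05 over all genes), 29.7% of the 74 where 17.7% of all genes were called. The lists were chosen with earlier results of these data known. This share and the adjusted p-values below are therefore a description, and nothing is read from the share. Their median log2 fold change was 0.29. The 22 calls were not equally firm: CTH, GOT1, OPLAH, SARS1, SLC1A4, SLC7A5 and TXNDC12 kept theirs in all 14 alternatives. Of the 22, 7, 11 and 7 were still called with DMSO replicate 1, 2 or 3 left out, and 19, 16 and 22 with EZA replicate 1, 2 or 3 left out. Over all genes, 2392 were called, 220, 787 and 254 with those DMSO libraries left out, and 1574, 1469 and 5289 with those EZA libraries left out, so the counts moved across the whole table. With the GC content and length trend removed 12 of the 22 were still called. Some genes named below that were not called became so without EZA replicate 3: CNDP2 at 0.32, GGT1 at 0.55, SLC25A40 at -0.41, ABCC5 at -0.43, GPX3, GLRX at 0.57, TRNAU1AP at 0.385 and TFRC (edgeR adjusted p from 3.67e-05 to 0.0352).

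Among transporters of cystine, cysteine and partners of SLC3A2, 4 of 7 tested genes were called higher and 1 lower. These calls were 71.4% of the list, where 17.7% of all genes were called. SLC7A5 (LAT1), a light chain that pairs with SLC3A2 to import large neutral amino acids, rose from 323 ± 50.2 to 1092 ± 177 CPM (SD, n = 3 each), which is 1.76 ± 0.18 on the log2 scale (SE; edgeR adjusted p = 0.00113). SLC1A4 and SLC1A5, neutral amino acid transporters of the ASCT type, rose by 1.585 ± 0.12 and 1.04 ± 0.15 on the log2 scale (adjusted p = 2.20e-04 and 0.00573). The call of SLC1A5 was lost without DMSO replicate 1 or 3, with an adjusted p of up to 0.0554. MFSD12, which brings cysteine into lysosomes, rose by 0.60 ± 0.14 (adjusted p = 0.0258), but with the GC content and length trend removed it was at 0.003 and not called, and its call was lost without DMSO replicate 1 or 3 too.

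SLC7A6, another light chain that pairs with SLC3A2, fell from 38.6 ± 4.74 to 23.0 ± 6.10 CPM (log2 fold change -0.745 ± 0.20; adjusted p = 0.0377). That call was lost in 5 of 14 alternatives, among them leaving out DMSO replicate 1, 2 or 3 or EZA replicate 2, with an adjusted p of up to 0.158. SLC7A7, SLC7A8 and SLC7A10, further light chains, had too few counts to be tested, as did SLC3A1 and SLC7A9, which form the cystine carrier of kidney.

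In the list of the methionine cycle, transsulfuration and sulfur oxidation, 4 of 12 tested genes were called higher and none lower. That is 33.3%, where 17.7% of all genes were called. Of the 12, 6 had an unadjusted p below 0.05 in edgeR, as did 4676 of all 13503. TXNDC12 lies outside the pathway its list names. With it left out, a choice made after seeing the data, 3 of 11 were called, all higher (27.3%). Of all the other genes listed, 21 of 73 were called (28.8%). CTH, cystathionine γ-lyase, which releases cysteine from cystathionine, rose from 6.96 ± 0.55 to 45.4 ± 9.76 CPM (SD, n = 3 each), which is 2.71 ± 0.19 on the log2 scale (SE; adjusted p = 2.09e-04). GOT1, cytosolic aspartate aminotransferase, rose from 37.3 ± 1.49 to 109 ± 9.64 CPM (adjusted p = 3.57e-04). TXNDC12, an ER oxidoreductase of the thioredoxin family, rose by 1.41 ± 0.16 (log2 scale; adjusted p = 0.00239). AHCY, which hydrolyses S-adenosylhomocysteine, rose by 0.55 ± 0.14 (adjusted p = 0.0339), a call that 7 of 14 alternatives ended, leaving out any 1 DMSO library or EZA replicate 1 or 2 among them. CBS, which forms cystathionine, was listed at 0 in all 6 libraries. GRCh38 carries a near-identical copy of this gene, and how reads matching both were counted is not given, so the 0 does not show that CBS was absent.

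Of the genes of γ-glutamyl and dipeptide breakdown, OPLAH alone was called among 4 tested, 25% where 17.7% of all genes were called. OPLAH, 5-oxoprolinase, turns the 5-oxoproline released by CHAC1, CHAC2 and GGCT back into glutamate. It rose from 134 ± 21.4 to 329 ± 58.5 CPM (SD, n = 3 each), which is 1.29 ± 0.17 on the log2 scale (SE; edgeR adjusted p = 0.0041), and was at 0.77 with the GC content and length trend removed. GGT1, which cleaves glutathione outside the cell, was at 9.23 ± 0.91 and 12.1 ± 2.31 CPM (adjusted p = 0.171). The dipeptidase CNDP2 had a log2 fold change of 0.52 ± 0.16 (adjusted p = 0.0593; called in 4 of 14 alternatives) and the aminopeptidase LAP3 one of -0.01 ± 0.12 (adjusted p = 0.954).

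Among carriers of glutathione, 1 of 6 tested genes was called, 16.7% where 17.7% of all genes were called. SLC25A39, which imports glutathione into mitochondria, rose from 243 ± 24.1 to 388 ± 44.6 CPM (SD, n = 3 each; edgeR adjusted p = 0.0168). Its call was lost with any 1 DMSO library left out and with the GC content and length trend removed, with an adjusted p of up to 0.1025. Its relative SLC25A40 had a log2 fold change of -0.51 ± 0.18 and did not pass (adjusted p = 0.0765). The exporters ABCC4 and ABCC5 were at -0.17 ± 0.13 and -0.30 ± 0.16 (adjusted p = 0.38 and 0.209).

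None of the 3 other glutathione peroxidases tested was called in edgeR, where 17.7% of all genes were, and 0 had an unadjusted p below 0.05. GPX1, the main cytosolic peroxidase, was at 193 ± 22.85 and 229 ± 19.97 CPM (SD, n = 3 each; adjusted p = 0.225). GPX3 and GPX8 had log2 fold changes of 0.27 ± 0.17 and -0.13 ± 0.18 (SE). GPX3 was called without EZA replicate 3, at 0.40 (adjusted p = 0.0319).

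Of 15 tested glutathione S-transferases and related genes, 4 were called higher and 1 lower, 33.3% where 17.7% of all genes were called. GSTZ1, which isomerises maleylacetoacetate, rose from 4.12 ± 0.98 to 9.76 ± 1.52 CPM (SD, n = 3 each; edgeR adjusted p = 0.0113). GSTM3 and GSTO1 rose by 0.76 ± 0.18 and 0.61 ± 0.16 on the log2 scale (SE; adjusted p = 0.0247 and 0.0328). GSTT2B rose by 0.79 ± 0.21 (adjusted p = 0.03555), but it has a near-identical copy, GSTT2, so the division of reads between them is uncertain. GSTCD, a protein with a transferase-like domain, fell from 29.1 ± 2.96 to 16.6 ± 5.11 CPM (adjusted p = 0.0416). The calls of GSTM3, GSTO1, GSTT2B and GSTCD were lost without DMSO replicate 1, 2 or 3, and that of GSTZ1 without DMSO replicate 1 or 3, with adjusted p up to 0.169. GSTM3 and GSTO1 lost theirs without EZA replicate 2 too, and GSTCD without EZA replicate 1. With the GC content and length trend removed GSTT2B and GSTCD were not called, and GSTCD was not called with mitochondrial genes left out.

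The list of glutaredoxins and glyoxalases had 2 of 8 genes called, both higher, 25% where 17.7% of all genes were called. HAGH, glyoxalase II, which releases glutathione from lactoylglutathione, rose from 27.8 ± 4.36 to 49.0 ± 4.62 CPM (SD, n = 3 each; edgeR adjusted p = 0.0132), and its call was lost without DMSO replicate 1 or 3 (adjusted p up to 0.0806). PTGES2, a prostaglandin synthase with a glutaredoxin-like fold, rose by 0.605 ± 0.16 (log2 scale; adjusted p = 0.0346), a call lost with any 1 DMSO library or EZA replicate 2 left out and with the GC content and length trend removed (up to 0.161). GLRX and GLRX3, glutaredoxins, had log2 fold changes of 0.40 ± 0.18 and 0.43 ± 0.18 and did not pass (adjusted p = 0.162 and 0.133).

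Selenoprotein synthesis supplies the selenocysteine of GPX4. Of its 10 genes 2 were called, both higher, which is 20% where 17.7% of all genes were called. SARS1, the cytosolic seryl-tRNA synthetase that also charges the selenocysteine tRNA with serine, rose from 183 ± 5.205 to 536 ± 37.65 CPM (SD, n = 3 each; edgeR adjusted p = 3.48e-04). SEPHS2, which makes selenophosphate, rose from 148 ± 1.47 to 225.2 ± 37.75 CPM (adjusted p = 0.02435), a call lost without any 1 DMSO library and with the GC content and length trend removed (up to 0.119). TRNAU1AP, which binds the selenocysteine tRNA, and SCLY, which recovers selenium, were at 0.41 ± 0.14 and -0.545 ± 0.24 on the log2 scale and did not pass (adjusted p = 0.0729 and 0.139).

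In the list of other lipid peroxide defences and lipid substrates, 2 of 9 tested genes were called, both higher. That is 22.2%, where 17.7% of all genes were called. AIFM2 (FSP1), which keeps ubiquinone reduced at membranes, rose from 115 ± 2.11 to 168 ± 11.55 CPM (SD, n = 3 each; edgeR adjusted p = 0.0174). PLA2G6, a phospholipase, rose from 2.79 ± 0.76 to 5.13 ± 0.66 CPM (adjusted p = 0.04295). Both calls were lost without any 1 DMSO library and with the GC content and length trend removed, and that of PLA2G6 without EZA replicate 1 or 2, with adjusted p up to 0.113 and 0.244. LPCAT3, which remodels phospholipids, and TFRC, the transferrin receptor, were at -0.62 ± 0.27 and -0.44 ± 0.15 on the log2 scale and did not pass (adjusted p = 0.139 and 0.0712). TFRC was called in 3 of 14 alternatives, at -0.57 without EZA replicate 3 (adjusted p = 5.95e-05), and LPCAT3 in 1, with no filter on low counts (adjusted p = 0.0173).

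**Figure D4:**
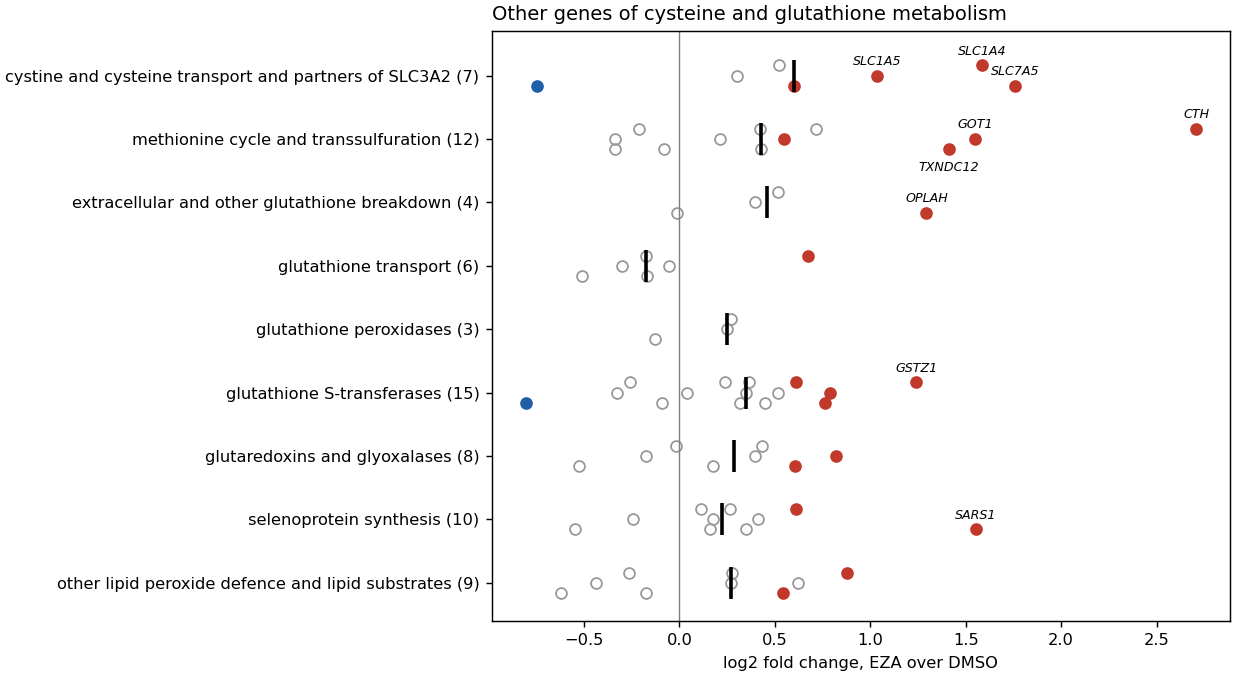
Log2 fold change, EZA over DMSO, of the tested genes of each list (number tested in parentheses), with called genes filled in red (higher) or blue (lower), other genes as open grey circles, and a black tick for the list's median. Called genes that changed at least 2-fold are named; CTH lies farthest to the right at 2.71, and SLC7A6 and GSTCD are the 2 called lower.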

How the data were processed

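Messenger RNA of RKO cells was sequenced from libraries without strand information, per the labels' protocols. The build GRCh38 and the tools HISAT2, featureCounts, FastQC and DESeq2 are listed in the submitters' processing notes, without versions, options or annotation. Deposited values were read counts, whole numbers for each Ensembl gene, and FPKM, both for 6 libraries. The deposited FPKM were used for levels between genes only. Counts were tested with edgeR (filterByExpr, TMM, robust quasi-likelihood test, two-sided, Benjamini-Hochberg over 13503 genes) without covariates; standard errors come from the F statistic. Symbols, positions, GC content and transcript length came from GENCODE 44, in which 58207 of 58735 identifiers were found. The 14 alternatives were other scalings, no filter, limma-voom, DESeq2, replicate number as block, a lowess trend with GC content and length taken out (span 0.3), mitochondrial genes left out and each library left out in turn. The edgeR steps were run on simulated counts with the same dispersion in all libraries. No simulated library stood apart as EZA replicate 3 does, so that run does not cover its effect on the calls. Replicates differed by more than counting noise (chi-square per degree of freedom 4.75 to 115). The members and gene lists were chosen with earlier results of these data known; genes are named as all members and, per list, the 4 with the smallest adjusted p plus 1 called in the other direction, the regulators, the 3 nearest patterns of SLC7A11, CHAC1, GCLM and GPX4, and genes overlapping a member. CBS and the untested transporters were named after their counts were seen. An item of the planned lists is not reported here. No set test was run. Versions were DESeq2 1.42.0, limma 3.58.1 and edgeR 4.0.16 in R 4.3.3, with Python 3.11.15.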

Additional observations from a re-analysis of the deposited data

How the results depend on the processing

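Over 14 alternatives, 121 of 140 values of the 10 genes kept their direction and side of the threshold, 14 fell below it and 4 changed sign. GPX4 and GGCT passed it without EZA replicate 3, GGCT with its sign changed. Changes of sign were those of GPX4 with the GC content and length trend removed (-0.111) and of GGCT with limma-voom (-0.035), with the replicate block (-0.021) and without EZA replicate 3 (-0.347, where leaving out single libraries gave up to 0.22). Genes called were 2392, and 1581 with the GC content and length trend removed; with 1 library left out they were 220 to 5289, those called among the 10 genes 4 to 10, and among the other genes 7 (of 74) to 42 (of 75). Genes called fell with any DMSO library or EZA replicate 1 or 2 left out and rose without EZA replicate 3; the cause was not tested.

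The labels do not say whether the replicate numbers pair the libraries. Same-numbered libraries correlated at 0.0327, -0.175 and 0.0266 in their deviations from the group means, and differently numbered ones at -0.131 to 0.171. With 3 libraries per group, and EZA replicate 3 standing apart, these values cannot settle the question. With the replicate block 1970 genes were called, and 7 of the 10 genes. The order of levels by CPM over annotated exon length matched that by FPKM in 18 of 20 places. Both divide the same counts by a fixed length per gene, so this match does not test whether those lengths suit the transcripts present. Small values of genes that were not called changed sign too: LAP3 with mitochondrial genes left out (0.026) and with single libraries left out (-0.088 to 0.027), ABCC4, GPX1 and GPX8 with the trend removed (0.017, -0.215 and 0.112), and GPX8 with single libraries left out (-0.281 to 0.034). Depth limits CHAC1 in DMSO, with 23 to 42 counts.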
